A study of Mus musculus with 6 samples.

Results

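Long intergenic RNA regions were read on 6 arrays of peritoneal cavity (PC) B1a cells, a self-renewing B cell population that makes natural antibody. The arrays carry 16194 probes whose name is a genomic interval, in 4610 combinations of region and strand, and a probe was kept where the scanner software marked it well above background on all 6 arrays. This held for 3039 region probes (18.8% of the region probes, among 55681 probes in all), in 1647 combinations of region and strand. Of these, 1446 lay on the forward strand, 1590 on the reverse strand and 3 had no strand ending in their name. The probes were thus chosen by measured detection, which was more frequent on the control arrays, as given below. They are called region probes from here on.

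The cells came from 7-week-old female mice on the C57Bl/6 background. The knockout group was p40-/-IL-2Rα-/- (3 arrays), and the control group was p40-/-IL-2Rα+/- (3 arrays). Both genotypes lack p40, the shared subunit of IL-12 and IL-23 that Il12b encodes, and the control mice keep 1 working copy of Il2ra, which encodes CD25. The question of the comparison was how loss of IL-2Rα changes the transcripts of these cells. Each sample pooled at least 3 mice, and the B1a cells were sorted by surface markers. In a pool of sorted cells, fewer cells with an RNA and less of that RNA per cell cannot be told apart.

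A long intergenic RNA is a long transcript with little or no coding capacity that lies between annotated protein-coding genes. Known members include Xist, which coats the inactive X chromosome, and Malat1 and Neat1, which stay in the nucleus near splicing speckles and paraspeckles. Many other intervals were put on arrays because chromatin marks or transcript sequence pointed to transcription there, without a known function. Such an interval may hold a separate RNA, an extended end of a nearby gene, or a copy of a gene or repeat found elsewhere.

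Each region probe is a designed sequence of 60 bases, and positions are those of the array files in the mm9 build. The first 4 sequences are shown because they carry the largest or best supported differences, and the fifth because it was the brightest region probe of the reverse strand. Their positions were chr8:96993939-96993998, chr11:95630609-95630668, chr4:131742332-131742391 and chr13:19617600-19617659 on the plus strand, and chr19:5802130-5802189 on the minus strand. These 5 are in lower case throughout.
chr8:96983590-96994419_F: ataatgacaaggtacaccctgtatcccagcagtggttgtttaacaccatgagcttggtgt
chr11:95627874-95640824_F: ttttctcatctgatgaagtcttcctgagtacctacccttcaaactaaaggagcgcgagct
chr4:131734714-131742542_F: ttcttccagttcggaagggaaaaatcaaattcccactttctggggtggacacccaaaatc
chr13:19617358-19617879_F: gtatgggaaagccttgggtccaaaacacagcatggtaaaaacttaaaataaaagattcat
chr19:5801802-5802597_R: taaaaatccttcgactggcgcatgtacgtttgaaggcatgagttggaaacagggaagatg

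Another 4 sequences are shown in pairs, because a region probe and a gene's own probe held nearly the same bases. Capitals mark the longest run that the members of a pair share, which was 57 bases in the chromosome 17 pair and 58 bases in the chromosome 11 pair. The chromosome 17 probes lay at chr17:39983218-39983277 and chr17:39983221-39983280 on the plus strand, and BC031453 is the name the array gives a cDNA there. The chromosome 11 probes lay at chr11:3542141-3542200 and chr11:3542143-3542202 on the minus strand, and Tug1 is a known long noncoding RNA gene.
chr17:39982023-39983277_F: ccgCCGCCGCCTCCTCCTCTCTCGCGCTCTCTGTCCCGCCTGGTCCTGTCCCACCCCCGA
BC031453: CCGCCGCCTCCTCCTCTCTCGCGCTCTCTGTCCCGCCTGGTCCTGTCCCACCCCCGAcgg
chr11:3542140-3546888_R: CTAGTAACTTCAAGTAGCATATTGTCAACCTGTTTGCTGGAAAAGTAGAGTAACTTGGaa
Tug1: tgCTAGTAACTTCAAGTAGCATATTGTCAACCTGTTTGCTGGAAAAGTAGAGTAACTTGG

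Levels are log2 signals relative to the 75th percentile of the array, and a difference is knockout minus control on that scale. In intensity units this percentile was 252 to 272 for control and 66.5 to 162 for knockout, lowest for knockout replicate 2. All 6 arrays lay on 1 slide and had 1 scan. The Il2ra probe read 1.62, 1.13 and 1.35 in control and -0.31, -0.59 and 0.86 in knockout, without overlap (difference -1.38, adjusted p = 0.12), while the Il12b probe differed by -0.02. Probes for 4 Y-linked genes were not well above background on any array. Of the B cell and B1a markers, 9 of 9 with a probe were detected on all 6 arrays and none passed the 2-fold threshold used below, with a summed linear level of 1336 to 1396 in control and 1406 to 1588 in knockout. Of 8 striated muscle genes, 5 were tested and all 5 were over 2-fold higher in knockout, with a summed linear level of 0.333 to 0.443 in control and 1.79 to 2.24 in knockout, in units of the 75th percentile. Among 8 T cell markers 1 passed that threshold upward, among 8 macrophage markers 1 passed it downward, and the summed levels of these 2 lists overlapped between genotypes. Of 5 plasma cell genes 1 passed it downward, and their summed level was 44.5 to 53.6 in control and 26.4 to 37.2 in knockout. Of 6 granulocyte and mast cell genes 2 were tested and 1 passed downward, of 5 NK cell genes 2 were tested and none passed, and the summed levels of these lists overlapped. The part of these cell types and of array brightness in the results below was not tested.

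Of the 16194 region probes on the array, 9492 were well above background on no array, and 665 were so on 5 arrays. Another 240 were detected on all 3 control arrays and on no knockout array, and 0 showed the opposite pattern. Detection was lower in knockout over the whole array too. Of all non-control spots, 47.2% to 50.6% were well above background on control arrays and 39.7% to 45.9% on knockout arrays. The 10 dimmest of the 3039 probes that were kept had mean levels of -3.33 to -3.17. The 665 probes just outside the rule had mean levels of -3.66 to -1.15, so probes inside and outside the rule overlapped in brightness. Only 3 kept probes lacked a value on an array because of an outlier spot.

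Region probes were on the whole higher in knockout than in control PC B1a cells. In control the median level of the 3039 probes was -1.02, -0.98 and -1.06, and in knockout it was -0.76, -0.59 and -0.88. All 3 knockout arrays lay above all 3 control arrays, and the highest was knockout replicate 2, the dimmest array. The median difference was 0.28, and 2222 region probes (73.1%) were higher in knockout against 817 lower. The other 17632 probes detected on all 6 arrays, most of them for protein-coding genes, had a median difference of -0.14, with 36.9% higher in knockout. By the start of their accession, the 13391 NM_ probes had a median of -0.18 and NAP probes one of -0.07. Every remaining class lay above 0, as region probes did. These medians ran from 0.03 for other names to 0.13 for AK and ENSMUST, 0.17 for TC and 0.18 for XM_ (65.6% higher in knockout). Over all 24756 probes tested the median was -0.09, and over all 55681 probes, dim ones included, it was 0.55, above that of the region probes. With the median taken first within each of the 1647 combinations of region and strand, the median of these was 0.35, with 79.4% above 0.

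A threshold of 2-fold together with an unadjusted p of 0.05 from limma was passed by 178 region probes upward and 6 downward. Among all probes tested, 2.38% passed upward and 1.26% downward, and among the 20671 detected on all 6 arrays 2.38% and 0.445%. Without the rule of detection on all 6 arrays the balance was different: of the 4344 region probes tested, 218 passed upward and 55 downward, with a median difference of 0.21 and 66.2% higher in knockout. The 6 lower probes of the 3039 came from 3 regions, on chromosomes 4, 6 and 17, all on the forward strand. The knockout arrays lay wholly above the control arrays for 955 region probes (31.4%; 15.6% of all probes tested) and wholly below for 210 (6.91%; 19.6% of all). Among probes detected on all 6 arrays these shares were 17% and 20.8%. After adjustment over all probes tested, 3 region probes passed an adjusted p of 0.05 (0.0808% of all), of the 948 (31.2%; 24.6% of all) with an unadjusted p under 0.05. Without knockout replicate 2 the 2-fold count was 75 upward and 12 downward and the median difference 0.17, and without knockout replicate 3 they were 341 and 14 and 0.38. When normexp replaced the background subtraction, 24 passed upward and 4 downward relative to the 75th percentile (85.7% upward) and 45 and 2 after quantile normalization (95.7% upward), against 96.7% upward in the main values, and the adjusted count ran from 0 to 1139 over the alternatives. At 1139 this was 37.5% of the region probes and 37.7% of all probes tested, so the share was that of the background.

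The 2 strands had similar values, and the difference between them was not tested. The median difference was 0.28 for forward and 0.29 for reverse region probes. Upward 2-fold calls numbered 86 on the forward (5.95%) and 92 on the reverse strand (5.79%), where 2.38% of all probes tested passed upward. Non-overlapping higher probes numbered 470 (32.5%) and 485 (30.5%), against 15.6% of all. The median level of forward probes was -0.92, -0.85 and -0.92 in control and -0.66, -0.41 and -0.77 in knockout. That of reverse probes was -1.11, -1.09 and -1.16 in control and -0.87, -0.71 and -0.96 in knockout.

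All 20 chromosomes with region probes (1 to 19 and X) had a median difference above 0. On each of the 20 the region probes had a higher median difference than the other detected probes of that chromosome, by 0.23 to 0.59, and the other probes had a median below 0 on every one (-0.17 to -0.11). Both strand medians were above 0 on all 20 chromosomes, and the forward median was the higher one on 8. On 15 chromosomes the median levels of the 3 knockout arrays lay wholly above those of the 3 control arrays. The exceptions were 6, 7, 17, 19 and X. The sign of all 20 medians held under each of 19 alternatives, with values between 0.05 and 0.54. Some of these alternatives change only the test and could not move a median.

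**Figure D1:**
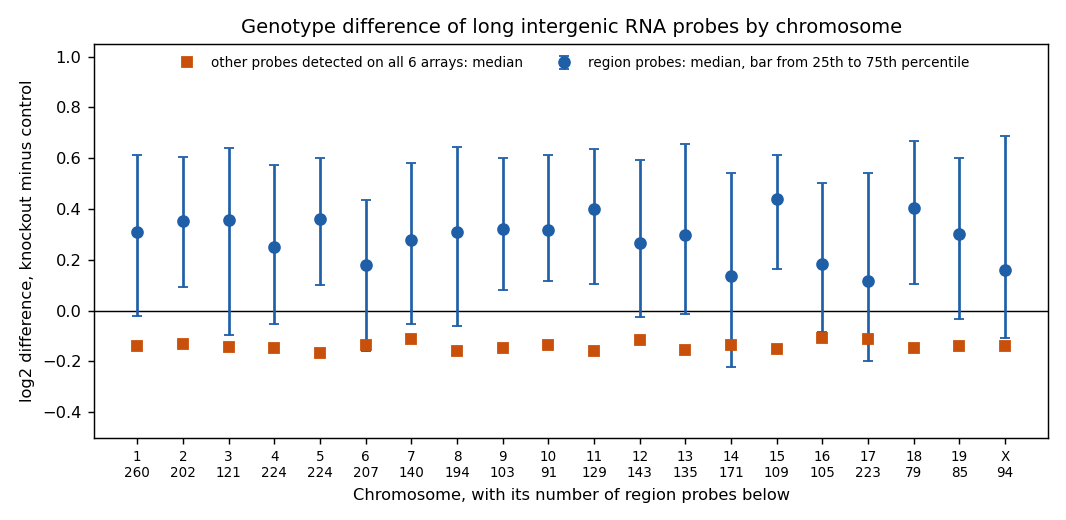
Median log2 difference (knockout minus control, y axis) of the region probes on each chromosome (x axis, with the number of probes), with a bar from the 25th to the 75th percentile over probes, beside the median of the other probes detected on all 6 arrays. All 20 region medians lie above 0, from 0.12 on chromosome 17 to 0.44 on chromosome 15, and all 20 squares lie below 0.

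Chromosome 15 had the highest median difference, 0.44 over 109 region probes. Its median level was -1.33, -1.46 and -1.46 in control and -1.09, -0.54 and -1.32 in knockout, so replicate 2 stood well above the other knockout arrays. Chromosomes 11 (129 probes) and 18 (79 probes) followed at 0.40 each, and 43.0% of the chromosome 18 probes did not overlap upward, the highest share of any chromosome, against 31.4% of all region probes and 15.6% of all probes tested. Chromosome 17 was lowest at 0.12 over 223 probes, with levels of -0.63, -0.60 and -0.80 in control and -0.48, -0.57 and -0.61 in knockout, which overlapped. It was followed by chromosome 14 at 0.13 (171 probes) and X at 0.16 (94 probes). The number of region probes ran from 79 on chromosome 18 to 260 on chromosome 1, and the share of region probes on the array that were detected ran from 12.6% on chromosome 10 to 26.4% on chromosome 19. The 25th to 75th percentile ranges of all chromosomes overlapped, and no test between chromosomes was made because probes of 1 region tended to move alike, as given below.

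Brighter probes had lower median differences, among region probes and among others. Region probes were dimmer, with a median level of -0.92 against 1.45 for the other detected probes. Among probes with a mean level between -3 and -2, the median difference was 0.47 for 637 region probes and 0.42 for 960 others. Between -1 and 0 it was 0.22 for 572 region probes and -0.04 for 2317 others. Above 2 it was 0.07 for 399 region probes and -0.20 for 7475 others. In the 4 bands above -2 the region probes were higher by 0.23 to 0.28, and in the 2 bands below by 0.03 and 0.05.

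**Figure D2:**
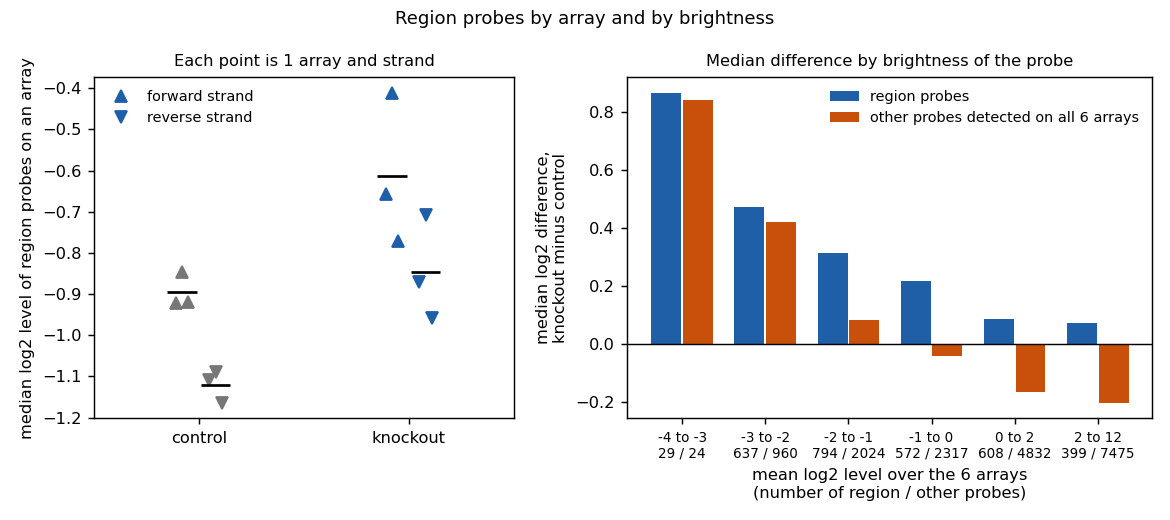
Left, the median log2 level of forward and reverse region probes on each array (points) with the mean of 3 arrays (line); all knockout points lie above the control points of their strand. Right, the median log2 difference of region probes and of the other detected probes in bands of mean log2 level, which falls from 0.87 and 0.84 in the dimmest band to 0.07 and -0.20 in the brightest.

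Base composition moved with the difference as well. The median share of G and C was 45% in region probes and 43.3% in the others. The median difference of region probes was 0.03 where this share was at most 35% (360 probes), 0.27 between 40% and 45% (1195 probes) and 0.47 above 60% (209 probes). In the same bands the others had medians of -0.23, -0.11 and 0.40. Across probes, Pearson's r between the GC share and the difference was 0.19 in both sets, over 3039 region probes and 17632 others that share the same 6 arrays. The part of base composition in the difference was not tested.

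Of the 3 region probes that passed the adjusted p, none passed it when any control array was left out, and the chromosome 8, 11 and 4 probes passed it under 8, 7 and 6 of 18 alternatives. The largest difference was in the forward region chr8:96983590-96994419, whose probe sequence stands first above. It read -2.01, -2.79 and -2.44 in control and -0.40, 0.21 and -0.22 in knockout. The groups did not overlap, and the probe rose 4.86-fold (log2 difference 2.28, SE 0.25, adjusted p = 0.046). The region's other member probes, within 123 bases of it, differed by 2.18 (adjusted p = 0.052) and 1.85 (adjusted p = 0.10), and neither pair of groups overlapped. Over the alternatives the difference of the first probe ran from 1.22 to 2.48. The nearest gene probe was for Nlrc5, 36539 bases away on the same strand, and Nlrc5 encodes a regulator that switches on MHC class I genes. That probe read -2.40, -2.69 and -2.52 in control and -0.76, -0.53 and -1.35 in knockout (difference 1.66, adjusted p = 0.073), and a second Nlrc5 probe further along differed by 1.16 (adjusted p = 0.078).

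The region probe that fell lay in the forward region chr4:131734714-131742542. It read 0.22, 0.15 and 0.09 in control and -1.14, -1.43 and -1.07 in knockout, a log2 difference of -1.37 (SE 0.16, adjusted p = 0.049), which under normexp was -0.77 relative to the 75th percentile and -0.93 after quantile normalization. The other 3 member probes of the region on that strand, all 4 within 248 bases, differed by -1.21, -1.13 and -1.07, with adjusted p-values of 0.083, 0.069 and 0.093, and none overlapped between genotypes. These 4 adjacent probes made up 4 of the 6 region probes that passed the 2-fold threshold downward. The nearest gene probe, for Ythdf2, which encodes a reader of methylated adenosine in RNA, lay 345 bases away on the opposite strand. It read 2.50, 2.37 and 2.57 in control and 2.40, 2.37 and 2.64 in knockout, a difference of -0.01. Another Ythdf2 probe, further away, was higher in knockout by 0.74 without overlap between genotypes (adjusted p = 0.11 by limma).

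The third was in the forward region chr11:95627874-95640824 and read -2.95, -2.93 and -3.22 in control and -1.67, -1.53 and -1.61 in knockout (log2 difference 1.43, SE 0.15, adjusted p = 0.046). With normexp and quantile normalization it differed by 0.50, below 2-fold. This region held 8 member probes, and the other 7 differed by -0.72 to 0.12, with no adjusted p under 0.05. The nearest gene probe was for Zfp652, a zinc finger gene, 2979 bases away on the same strand, with a difference of -0.16. One of the 7 shared 55 bases with that Zfp652 probe and differed by -0.24. On the reverse strand of the same interval 4 member probes were lower, by -0.85 to -0.58, and for 3 of them the groups did not overlap.

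**Figure D3:**
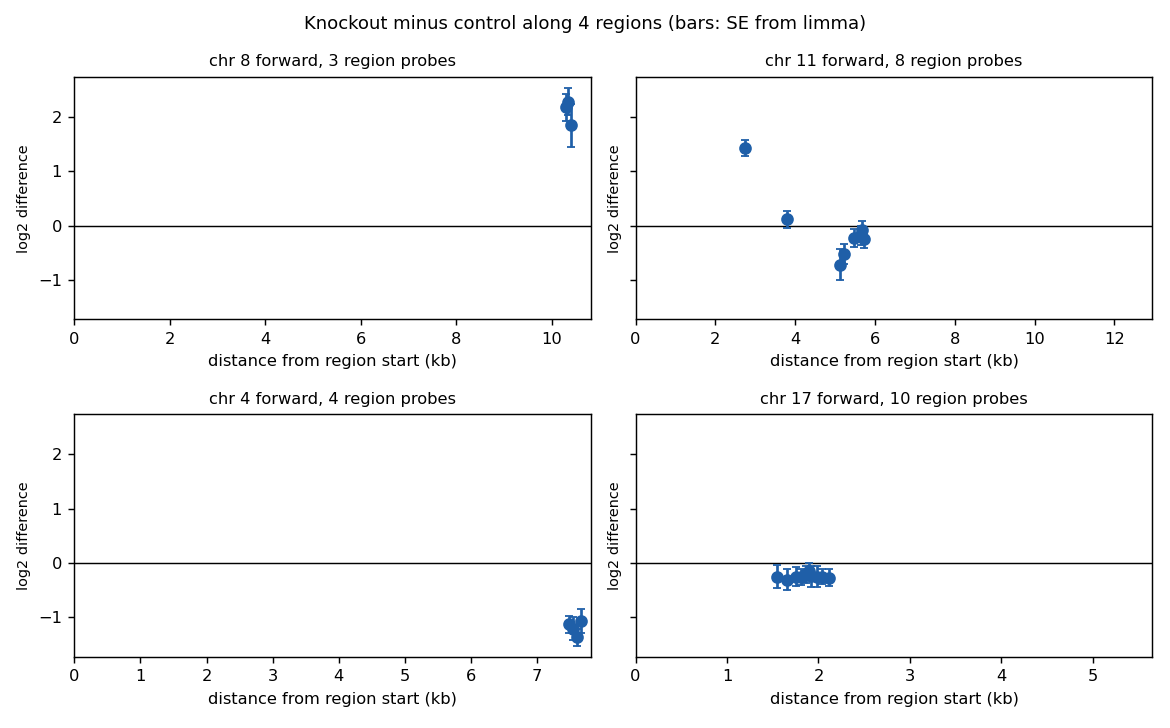
Log2 difference (knockout minus control, with its SE from limma) of each member probe by its distance from the start of the region, in 4 forward regions on chromosomes 8, 11, 4 and 17. The 3 chromosome 8 probes lie near 2, the 4 chromosome 4 probes near -1, and 1 of the 8 chromosome 11 probes lies at 1.43 while the rest are at or below 0.12.

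The largest increase of all was in the forward region chr13:19617358-19617879, where 1 probe read -3.73, -2.18 and -2.75 in control and -0.41, 2.50 and -0.99 in knockout (log2 difference 3.25, SE 0.87, adjusted p = 0.12). Knockout replicate 2 lay far above the other knockout arrays there, and without it the difference was 2.19. The reverse region chr4:123361002-123364781 showed the same shape, with -3.43, -2.91 and -3.51 in control and -1.44, 0.76 and -1.69 in knockout (difference 2.49, and 1.72 without that array). So did 1 probe of the reverse region chr3:88323145-88335770, with -2.06, -1.96 and -1.90 in control and -0.11, 1.35 and -0.42 in knockout (difference 2.25, and 1.71 without that array). Averaged over the member probes of the chromosome 3 region, the difference was smaller, at 1.19 on the reverse and 0.33 on the forward strand. The Ndufs5 probe, for a subunit of respiratory complex I, was the nearest to the chromosome 4 region at 25264 bases and differed by -0.28.

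Chromosome 12 held 3 of the 10 largest increases. The forward region chr12:111322030-111323387 differed by 2.11, the reverse region chr12:3407353-3426580 by 1.92 and the forward region chr12:112220578-112220962 by 1.89, with adjusted p-values of 0.12, 0.13 and 0.10. Knockout replicate 2 was the highest array in each, and without it they differed by 1.35, 1.23 and 1.41. The chromosome 12 reverse region lay 979 bases from a probe for Kif3c, a kinesin motor, on the opposite strand, and that probe differed by 0.12. The last of the 3 lay 5823 bases from an Ankrd9 probe that differed by 0.14.

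The reverse region chr2:129416848-129417413 was different in that respect. Its probe read -3.79, -3.20 and -3.64 in control and -1.27, -1.96 and -1.65 in knockout, where replicate 2 was the lowest knockout array (difference 1.91, adjusted p = 0.054, and 2.08 without replicate 2). Over the alternatives this difference ran from 0.62, which is below 2-fold, to 2.09. The nearest gene probe, for Sirpa, an inhibitory receptor of myeloid cells, lay 40947 bases away on the opposite strand and differed by -0.28.

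The other 2 decreases were in forward regions on chromosomes 6 and 17. In chr6:47687025-47728525 1 probe read 1.64, 0.87 and 1.42 in control and -0.36, -0.07 and 0.03 in knockout (difference -1.44, adjusted p = 0.077), with no gene probe within 50000 bases. Averaged over all forward member probes of that region the difference was -0.002, so the region as a whole did not fall. The probe of chr17:29374758-29387733 read 1.73, 1.54 and 2.14 in control and 0.55, -0.17 and 0.72 in knockout (difference -1.44, adjusted p = 0.089). The groups did not overlap for either probe. The gene probe nearest the second, for Ppil1, which encodes a protein of the spliceosome, lay 12831 bases away on the opposite strand and differed by -0.68.

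**Figure D4:**
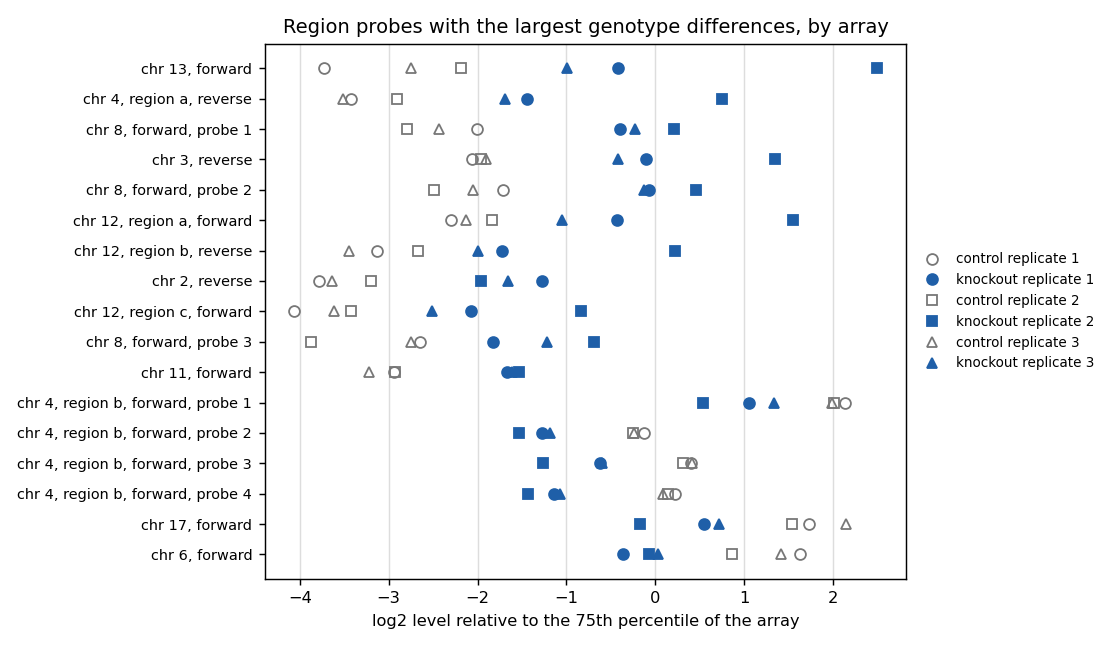
Log2 level relative to the 75th percentile of each array (x axis) for the 10 largest increases among region probes past the 2-fold threshold without overlap, the chromosome 11 probe with an adjusted p under 0.05 and the 6 decreases (rows), with open symbols for control and filled symbols for knockout and 1 shape per replicate. No row overlaps between genotypes, and knockout replicate 2 (filled squares) lies far right of the other knockout arrays in the chromosome 13, chromosome 3, chromosome 12 and reverse chromosome 4 rows.

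Several of the brightest region probes lay near the probe of an abundant RNA or matched one. On the reverse strand the brightest was chr19:5801802-5802597, at 8.76, 9.07 and 8.83 in control and 9.69, 9.81 and 9.35 in knockout (difference 0.73, adjusted p = 0.11). It lay 6417 bases from the Malat1 probe on the same strand, and the other 2 member probes of its region differed by 0.42 and 0.54. Whether this region lies within the Malat1 transcript was not tested, since only probe positions were used. The Malat1 probe read 4.94, 4.52 and 5.36 in control and 4.14, 4.51 and 5.08 in knockout, a difference of -0.37. Probes that the array names NEAT2, at and beside the same position, differed by -0.35 to -0.20. A region probe of chr19:5771425-5848475 that shares 39 bases with a NEAT2 probe differed by -0.32. The next on that strand, in chr11:22681800-22707775, differed by 0.59 and shared 45 bases with a probe for Rps16, a ribosomal protein gene of another chromosome, which differed by 0.55. The third, in chr7:108209996-108216032, differed by 0.40, and had the opposite sign with quantile normalization (-0.022) and in the deposited values (-0.027).

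On the forward strand the brightest was chr17:39982023-39983277, shown above beside BC031453. It read 8.49, 8.86 and 8.55 in control and 9.43, 9.91 and 9.31 in knockout, a difference of 0.92 (adjusted p = 0.10), and BC031453 differed by 0.96. The region's other member probes differed by 0.87 and 0.89. This stretch of chromosome 17 also holds the probe that the array names Rn18s, the 18S ribosomal RNA, at chr17:39985058-39985117, which differed by 1.09 (adjusted p = 0.11). In the overlapping forward regions chr17:39983902-39985688 and chr17:39960567-39992817, picked after their values were seen, 3 and 4 member probes differed by 0.30 to 0.53 and by 0.33 to 0.67. The next brightest forward probes, in chr14:78924115-78938125 and chr6:116092274-116144199, were 83.3% and 88.3% G and C and differed by 0.30 and 0.41, and the former had the opposite sign (-0.11 to -0.02) under 4 of the alternative scalings.

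Member probes of 1 region tended to move alike. Of the 1647 combinations of region and strand, 707 had at least 2 member probes. In 540 of these every member probe had the same sign, 410 all higher and 130 all lower. The median SD of the difference within such a region was 0.16, against 0.47 over all region probes. Among 80 with at least 5 member probes, 31 were higher on all of them and 13 lower on all.

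The regions with the most member probes, 10 each, showed small differences. In the forward region chr17:26911397-26917047 all 10 probes were lower, by -0.30 to -0.15, and for 3 the groups did not overlap. In the forward region chr4:129497990-129515290 they ran from -0.14 to 0.01, in the reverse region chr19:53517903-53540753 from -0.13 to 0.24, and in the reverse region chr6:116092274-116144199 from -0.53 to 0.05. The forward regions chr16:43623581-43642715 and chr5:74487385-74497428 were more mixed, from -0.47 to 0.82 and from -0.24 to 0.85. None of the 60 probes of these 6 regions reached the 2-fold threshold. The nearest gene probes were for Tigit, an inhibitory receptor of T and NK cells, in the chromosome 16 region and for Ptp4a2, a phosphatase, in the chromosome 4 region, 7169 to 9776 and 26052 to 26727 bases away.

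Both strands were detected in 232 regions. Both were higher in 152, both lower in 14, and they had opposite signs in 66. Across these regions Pearson's r between the forward and the reverse difference was 0.06, as a description over regions that share the same 6 arrays. Of 138 pairs of region probes that overlapped each other on opposite strands, 80 were higher on both and 18 lower on both.

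In 4 of the 5 regions where a forward and a reverse probe were furthest apart in brightness, every member probe of both strands was higher in knockout. In chr11:22681800-22707775 the bright reverse probe differed by 0.59 and the forward probes by 1.40 and 0.21. In chr12:73838608-73862621 the forward probes differed by 0.76 and 0.82 and the reverse probes by 0.41 to 0.70. In chr14:78924115-78938125 the forward probes differed by 0.30 and 0.62 and the reverse probe by 0.57. In chr7:112934153-112943178 the forward probes differed by 0.39 to 0.80 and the reverse probes by 0.07 and 0.76. In chr6:116092274-116144199 the forward probes differed by 0.09 to 0.60, while 8 of the 10 reverse probes were slightly lower. Brightness of different probes also depends on their sequence, so these gaps are not amounts of RNA.

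Region probes close to a gene's own probe on the same strand differed from the rest. The nearest probe with a gene symbol lay within 50000 bases of 2297 region probes, with distances taken between probe starts. The 300 region probes within 2000 bases on the same strand had a median difference of -0.04, with 47.0% higher in knockout, and 17.7% did not overlap upward, close to the 15.6% of all probes tested and the 17% of those detected on all 6 arrays. The other 2739 region probes had a median difference of 0.31, with 76.0% higher and 32.9% not overlapping upward. The 101 region probes within 2000 bases of a gene probe on the opposite strand had a median of 0.39. Beyond 2000 bases the medians were 0.25 to 0.34 on the same strand and 0.18 to 0.39 on the opposite strand, and the 717 region probes over 50000 bases from any gene probe had a median of 0.32.

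Across the 269 region probes within 2000 bases on the same strand whose gene probe was tested, Pearson's r between the region probe and the gene probe was 0.60, over 99 genes. Pairs whose probes overlap were not removed, as with region probes 2 bases from the Tug1 probe and 5 bases from the Zfp652 probe. This r is therefore in part that of shared sequence. Pearson's r was 0.18 across 67 on the opposite strand within that distance. On the same strand it was -0.07 between 2000 and 5000 bases and 0.24 between 20000 and 50000 bases, where the 3 Nlrc5 neighbours lie. The near same-strand probes were brighter, with a median level of -0.04 against -0.99 for the rest. Within bands of level the gap to the rest was uneven. The near probes had a median difference of -0.26 (47 probes) against 0.14 (352 probes) above a level of 2, and of -0.19 (58 probes) against 0.24 (514 probes) between -1 and 0. The gap was smaller in the other bands, at -0.05 against 0.11 between 0 and 2, 0.22 against 0.32 between -2 and -1, and 0.29 against 0.48 between -3 and -2. The order held under each of the 19 alternatives, with near medians of -0.09 to 0.06 and medians of the rest of 0.12 to 0.41. Those alternatives that change only the test could not move these medians. No test was made of the gap between near probes and the rest, since the probes share regions and arrays.

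**Figure D5:**
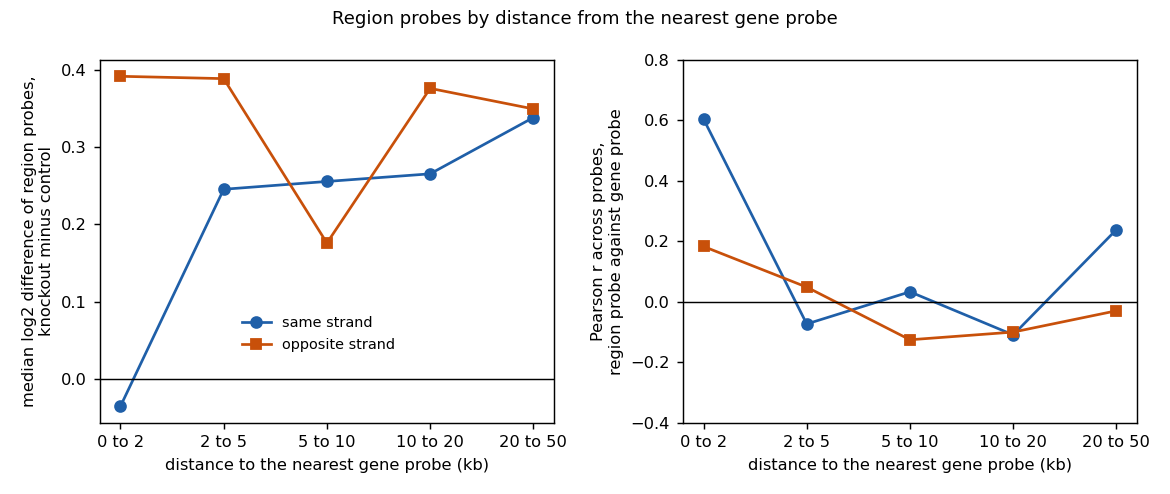
Left, the median log2 difference (knockout minus control) of region probes by distance from the nearest gene probe in kb, on the same or the opposite strand. Right, Pearson's r across probes between the difference of the region probe and that of its nearest gene probe, with overlapping pairs of probes included. The same-strand point within 2 kb stands at -0.04 on the left and 0.60 on the right.

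Region probes that share sequence with another probe read much like it, which follows in part from the design. Of the 3039 region probes, 84 shared a run of at least 30 bases with a probe that is not a region probe, and 83 had a tested partner. In 80 of 83 the region probe and its partner had the same sign, the median absolute gap between them was 0.06, and Pearson's r across them was 0.96. Many of these pairs share all 60 bases, so the same sequence was read again, and agreement there is no separate result. These 84 region probes had a median difference of -0.16, and the 53 that matched a probe with a gene symbol -0.25. Some matched a gene of another chromosome, as a probe of the reverse region chr16:32309935-32328234 did with Timm17b, a subunit of the mitochondrial import channel encoded on X (-0.51 against -0.46), and a probe of the reverse region chr4:33364774-33364898 with Cox5b, a subunit of cytochrome oxidase (-0.32 against -0.27). Others matched a neighbour, as in the reverse region chr4:136856064-136877219, where 5 member probes near Cdc42, which encodes a small GTPase, differed by -0.57 to -0.33, and the 3 forward member probes differed by 0.22 to 0.46. In the overlapping reverse region chr4:136856064-136875614, picked after its values were seen, 5 member probes 2489 to 2801 bases from the Cdc42 probe were higher, by 0.73 to 1.08, and 2 passed the 2-fold threshold.

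Among long noncoding RNA genes that have a name, 29 of a list of 48 had a probe under that symbol and 19 were tested. Of the 19, 11 were higher and 8 lower with a median difference of 0.03, none reached 2-fold or an adjusted p of 0.05 by limma, and 3 had an unadjusted p under 0.05, a smaller share than the 24.6% of all probes tested. These 3 did not overlap (15.6% of all probes tested were higher without overlap) and were Xist (2.18, 2.38 and 2.51 in control, 3.18, 3.23 and 3.07 in knockout, difference 0.80), Tug1 (difference 0.56) and Terc, the RNA template of telomerase (difference 0.46). A second Xist probe differed by 0.35. The 3 member probes of the reverse region chr11:3542140-3546888, shown above beside Tug1, differed by 0.59 to 0.69, with no overlap between genotypes. The 3 member probes of the overlapping reverse region chr11:3539787-3548811 were lower, by -0.60 to -0.38, also with no overlap, and so was a further Tug1 probe that shares sequence with one of them, by -0.42. Region probes that matched Mir17hg, the host gene of a microRNA cluster that acts in B cell development, Pvt1 and Dleu2 differed by 0.22, 0.21 and 0.22, while the Pvt1 probe tested in the list of named genes differed by -0.23.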

How the data were processed

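Total RNA of sorted PC B1a cells was labelled and hybridized to 1-colour Agilent mouse arrays, 3 per genotype, and read with Feature Extraction 10.7.1.1. The authors deposited spot intensities, background subtracted and not scaled between arrays, with a detection mark for each spot, and a log2 table in which all arrays have nearly the same distribution, as quantile normalization gives.

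The deposited processed intensity was put on a log2 scale relative to each array's 75th percentile, without outlier spots, and replicate spots were averaged. Testing required detection on every array of 1 genotype or the other and values from 2 or more arrays of each. Genotypes were compared in R 4.3.3 with limma 3.58.1 (lmFit, eBayes), with no covariates, and Benjamini-Hochberg adjustment ran over all 24756 probes tested. The steps were tested on simulated data. The number of arrays limits precision, and 3 against 3 allow no exact permutation p below 0.1. P-values measure the spread between these samples.

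The region probes and lists were chosen with earlier results of these data known. Probes named are those with an adjusted p under 0.05, the 10 largest increases and all 6 decreases among 2-fold calls without overlap, the 3 brightest of each strand, the 5 regions with the widest gap between strands, and those with the most member probes (6 tied at 10), with the nearest gene probe within 50000 bases. Those on chromosome 18 were counted only. Gene symbols of the array were matched to RefSeq names (GRCm38.p6, names only): 26319 of 39487 other probes by symbol, 3196 by an older symbol, 9972 not. The alternatives were quantile normalization, normexp with either scaling, the median of detected probes, the deposited log2 values, no filter or detection on all 6 arrays, outlier spots kept, 1 probe per gene, the methods' t-test, a trend with robust estimation, array weights, a replicate block, and each array left out.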

Additional observations from a re-analysis of the deposited data

How the results depend on the processing

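The median difference of the region probes stayed above 0, and above that of the other detected probes, under each of 19 alternatives. Some of these (no filter, detection on all 6 arrays, the t-test, a trend with robust estimation) change only the test or the probes tested. They could not move this median, which stayed at 0.28. No alternative changed the detection rule by which the region probes were chosen. Leaving out 1 array at a time, the 2-fold count ran from 87 to 355, the adjusted count from 0 to 15, the median from 0.17 to 0.38 and its distance from the other probes (0.42 in the main values) from 0.26 to 0.55; the lowest 2-fold count and medians came without knockout replicate 2 and the highest without knockout replicate 3. With normexp and quantile normalization the 2-fold count was 47, the adjusted count 6, the median 0.10 and its distance 0.15. With normexp and the 75th percentile these were 28, 1139 (37.5%, against 37.7% of all probes tested), 0.35 and 0.57. Quantile normalization gave a distance of 0.26 and an adjusted count of 0. With 1 probe per gene or region and strand the 2-fold count was 103, from 1637 region probes. The adjusted count was also 0 with the deposited log2 values, with no filter on dim probes, with 1 probe per region and with the methods' t-test (which gave 128 at 2-fold and an unadjusted p of 0.05), 21 (0.691%, against 0.464% of all) when only probes detected on all 6 arrays were tested, 134 (4.41%, against 3.96% of all) with a trend and robust estimation and 86 (2.83%, against 1.86% of all) with array weights, against 3. The causes were not tested. With the replicate number as a block the adjusted count was 0, the 2-fold count 184 and no other of these calls changed; same-numbered arrays correlated at 0.18, 0.06 and 0.12 in their deviations, each control array best with its own number, which is a hint from the data and not from the design. The log2 difference of chr14:78924115-78938125_F reversed with quantile normalization (-0.088), normexp with quantile (-0.11), normexp with the 75th percentile (-0.024) and the deposited values (-0.10), and that of chr7:108209996-108216032 with quantile normalization (-0.022) and the deposited values (-0.027). Of 428 values of single named probes under the alternatives, 399 kept their sign and their side of the 2-fold threshold. Alternatives that change only the test count among these.

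Over the alternatives the adjusted p of the chr8:96983590-96994419 probe ran from 8.25e-05 to 0.24, that of chr11:95627874-95640824 from 0.0028 to 0.24 and that of chr4:131734714-131742542 from 0.010 to 0.24. Dim probes limit what can be seen: differences of region probes below a level of -2 were barely apart from those of other probes as dim.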
